A study of Mus musculus with 2 samples.

Results

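The genes described here are 42 Wnt pathway components, feedback genes and targets, found by gene symbol; they were chosen with earlier results of these data known. They were followed in small-intestinal crypts of mice that can lose Lpcat3, the lysophosphatidylcholine acyltransferase that puts polyunsaturated fatty acids into membrane phospholipids. Of the 42 genes, 41 were named by at least 1 probe set and 30 were measured, out of 18193 genes named and 11496 genes measured on the arrays. A gene counts as measured when its signal reached the floor of 92.9, the 50th percentile of all signals, on at least 1 array. Where a gene had several probe sets, the one with the highest mean log2 signal gives its value.

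Both groups were homozygous for floxed Lpcat3. The control mice were Lpcat3 F/F without Cre. The knockout mice were Lpcat3F/F, Villin-CreERT2, in which the Villin promoter drives a tamoxifen-activated Cre in the intestinal epithelium. All mice started at 8 to 10 weeks of age and had 1 mg of tamoxifen per mouse and day by intraperitoneal injection for 5 days, and crypts were isolated 2 weeks afterwards. Each group is represented by 1 array, hybridised with the pooled RNA of 5 mice. With 1 array a group, nothing was tested and no p-value appears. Genotype, Cre, pool and array cannot be told apart. Ratios are log2 of the knockout signal over the control signal. The available error is technical and comes from 2 probe sets of the same gene. The SD of their difference in log2 ratio, divided by the square root of 2, was 0.28 (1.21-fold) over 4582 genes. It was 0.36 where the dimmer probe set lay between 92.9 and 200, 0.30 from 200 to 500, 0.23 from 500 to 2000 and 0.16 above. Both probe sets are read on the same 2 arrays, so this probe-set SD leaves out the spread between mice, pools and arrays.

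Wnt proteins bind a Frizzled receptor together with the co-receptor LRP5 or LRP6. Without that signal a destruction complex built on APC and AXIN, with the kinases CK1 and GSK3, marks beta-catenin for degradation. With it, beta-catenin accumulates and enters the nucleus, where it joins TCF/LEF factors on target genes. In the intestinal crypt this pathway maintains the stem cells at the base, and several of its targets encode inhibitors that feed back on it.

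The label check came first: the signal of Lpcat3 was 5.06-fold lower on the knockout array (4691 against 928), by its 1 probe set. All 10 epithelial markers were above the floor on both arrays, with a median log2 ratio of 0.12. None of the 10 differed by 1.5-fold (Cdx1 lowest at -0.43, Krt20 highest at 0.44). These markers do not tell crypt cells from villus cells. Median probe-set signal was 95.4 in control and 90.5 in knockout, and the ratio of 3' to 5' signal for Actb, a sign of RNA integrity, was 1.98 and 1.64.

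Among the 30 measured Wnt genes, 5 were lower in knockout crypts by at least 1.5-fold and none was 1.5-fold higher. These 5 were the secreted antagonist gene Sfrp5, the receptor genes Fzd6 and Fzd1, and the feedback and target genes Axin2 and Sp5. The share of 5 in 30 is 16.7%, against 8.74% of all genes measured that were at least 1.5-fold lower and 4.76% that were at least 1.5-fold higher. The median over the 30 genes was -0.17, with 22 lower and 8 higher, whereas the median of all genes measured was -0.042, with 55.1% of them lower. Most of the 30 genes thus lay close to the bulk of the array, and the larger differences were few and in 1 direction. When the floor was raised to the 70th percentile the count of 5 became 2 of 19 measured, Fzd6 (a bound of -0.71) and Axin2. Sfrp5 and Sp5 were no longer measured, and the value of Fzd1 became a bound of -0.36. At that floor 432 of all 8293 genes measured were at least 1.5-fold lower.

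**Figure D1:**
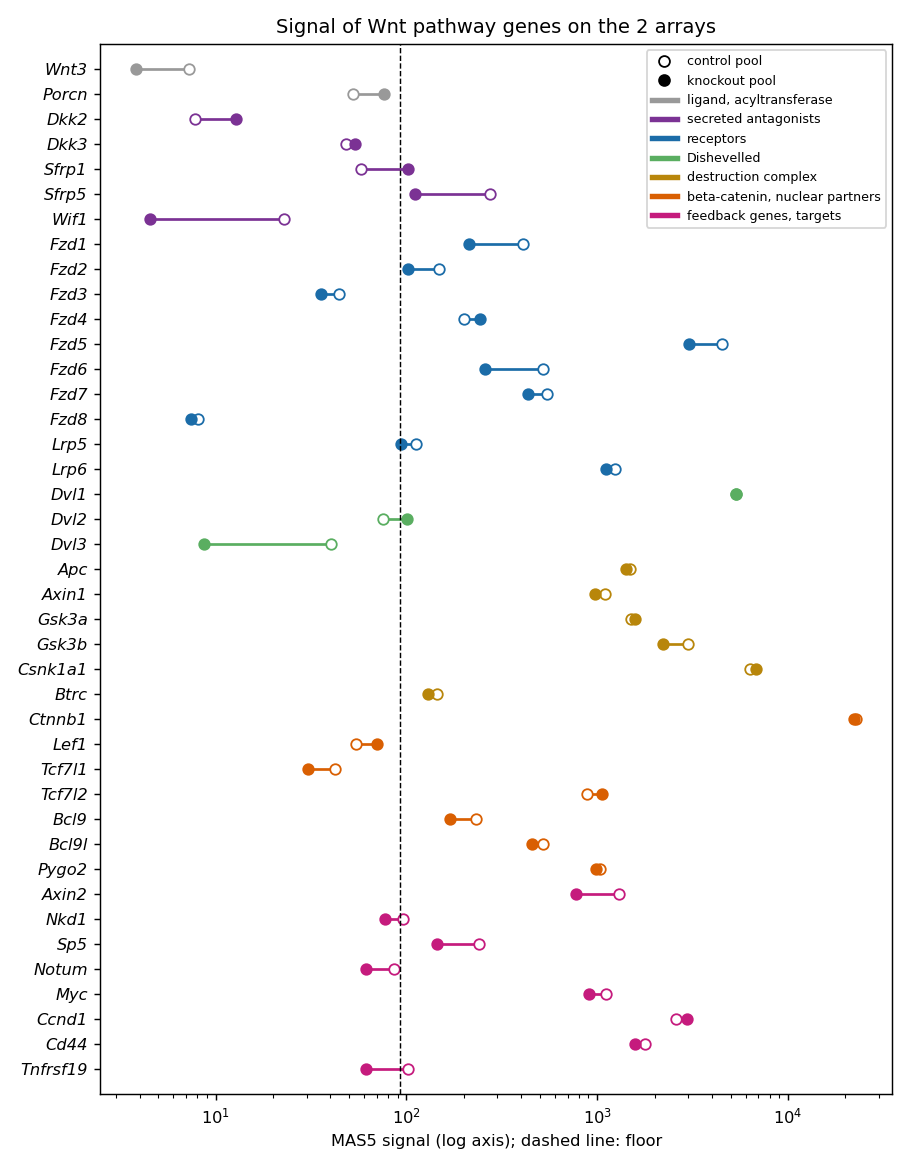
MAS5 signal (log axis) of the 41 named Wnt pathway genes in the control pool (open circles) and the knockout pool (filled circles), 1 array each, coloured by role; the dashed line is the floor of 92.9. Sfrp5, Fzd1, Fzd6, Axin2 and Sp5 show the widest gaps of all genes whose circles both exceed the floor, while the circles of Ctnnb1 and Dvl1 nearly coincide.

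**Figure D2:**
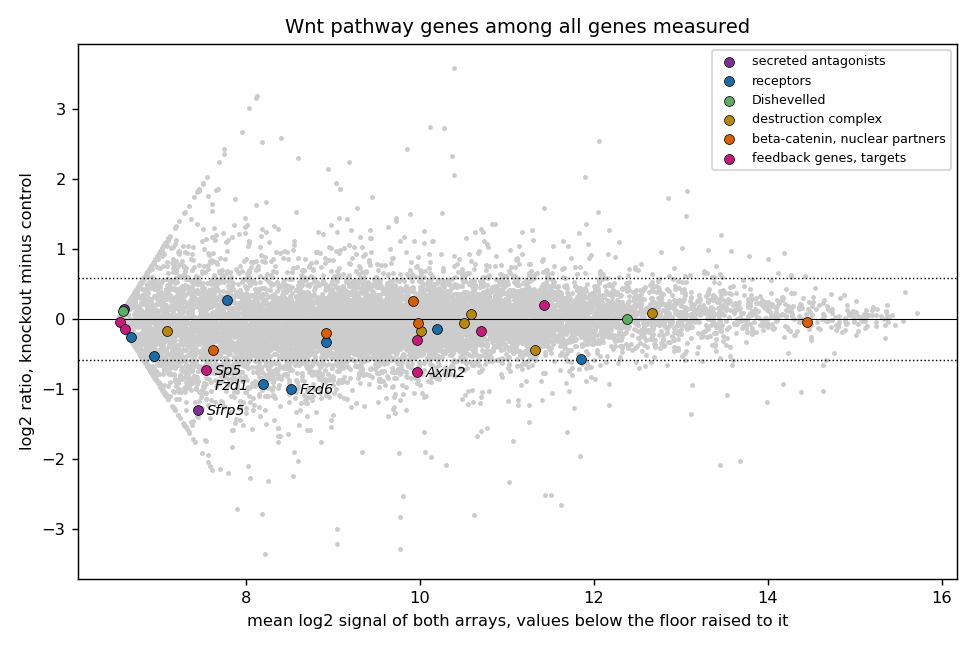
Log2 ratio, knockout minus control, against mean log2 signal for the 11496 genes measured (grey) and the 30 measured Wnt pathway genes (coloured by role); dotted lines mark 1.5-fold. The 5 labelled genes lie below the lower dotted line, and none of the 30 lies above the upper one.

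The promoters of the lower genes are shown because TCF/LEF factors recognise a short sequence that can be looked for in them. RefSeq windows (build GRCm38.p6) run from 250 bases before to 50 bases after the transcription start and were at hand for 25 of the 42 genes, among them 4 of the 5 lower ones. The letters searched on both strands were CTTTGAA together with its variants CTTTGAT as well as CTTTGTA and finally CTTTGTT. No 2 of these can start at the same base of a strand, but matches on opposite strands can overlap. Capitals mark the matches, and each sequence is written 5′ to 3′ on the strand of its gene. Axin2 lies at chr11:108920099-108920398 on the plus strand, Sp5 at chr2:70474673-70474972 on the plus strand, Fzd1 at chr5:4758167-4758466 on the minus strand and Sfrp5 at chr19:42202203-42202502 on the minus strand.
Axin2: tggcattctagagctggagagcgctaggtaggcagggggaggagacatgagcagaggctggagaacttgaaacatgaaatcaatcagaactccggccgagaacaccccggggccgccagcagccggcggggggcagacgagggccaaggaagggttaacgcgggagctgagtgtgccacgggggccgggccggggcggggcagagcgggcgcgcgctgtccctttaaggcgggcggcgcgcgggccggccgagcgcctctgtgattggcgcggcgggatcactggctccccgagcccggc
Sp5: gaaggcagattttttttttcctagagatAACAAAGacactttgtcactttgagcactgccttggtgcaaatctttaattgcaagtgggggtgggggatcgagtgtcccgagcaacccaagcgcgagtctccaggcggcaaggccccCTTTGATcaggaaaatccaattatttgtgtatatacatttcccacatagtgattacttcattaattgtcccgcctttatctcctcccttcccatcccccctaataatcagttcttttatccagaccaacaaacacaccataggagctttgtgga
Fzd1: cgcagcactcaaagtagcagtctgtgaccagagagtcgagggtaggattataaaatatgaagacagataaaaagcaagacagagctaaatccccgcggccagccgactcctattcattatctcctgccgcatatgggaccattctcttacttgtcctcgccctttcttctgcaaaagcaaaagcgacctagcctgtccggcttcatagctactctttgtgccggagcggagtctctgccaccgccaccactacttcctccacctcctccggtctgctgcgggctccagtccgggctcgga
Sfrp5: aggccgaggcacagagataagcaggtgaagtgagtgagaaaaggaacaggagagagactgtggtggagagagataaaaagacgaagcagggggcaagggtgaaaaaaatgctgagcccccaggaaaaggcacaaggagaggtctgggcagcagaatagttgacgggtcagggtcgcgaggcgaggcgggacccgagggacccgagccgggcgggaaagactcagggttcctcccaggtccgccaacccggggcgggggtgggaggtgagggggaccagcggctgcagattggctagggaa

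Of these 4 windows only that of Sp5 held a match. It held CTTTGAT with its first base at position -104 from the start site, and CTTTGTT on the reverse strand from position -222. Over the 34 windows of the 25 genes, 7 held at least 1 match (20.6%), against 16.9% of all 32851 windows outside chr18. The Wnt genes as a group were thus close to the background. Single motifs were found in 5.14% (CTTTGAA), 3.73% (CTTTGAT), 3.63% (CTTTGTA) and 5.85% (CTTTGTT) of the same 32851 windows. The other genes with a match were Fzd7, Gsk3a, Lef1, Tcf7l2, Tnfrsf19 and Wnt3. A match is a run of letters and not a measured binding site, and the windows do not reach distant elements.

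Ligand genes gave little signal. Wnt3, the Wnt made by Paneth cells beside the stem cells, and Porcn, the acyltransferase that attaches the lipid Wnt proteins need for secretion, were below the floor on both arrays. Wnt3 is read by 1 probe set, with signals of 7.25 in control and 3.85 in knockout, and Porcn had 52.5 and 76.4. At this floor neither has a ratio.

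Of the 5 secreted antagonist genes, 2 were measured and they stood on opposite sides of 0. Sfrp5, a secreted Frizzled-related protein that binds Wnt ligands, had a control signal of 275 and a knockout signal of 112, which is 2.46-fold lower (log2 ratio -1.30). Among the 30 measured Wnt genes Sfrp5 had the lowest log2 ratio and the largest fold difference. With a pseudocount in place of the floor Sfrp5 was at -0.85. It comes from 1 probe set, since the other one for Sfrp5 was below the floor on both arrays, and the knockout signal lay just above the floor. Sfrp1, a related antagonist, had 58.1 in control and 102 in knockout, so that it was at least 1.10-fold higher. Its other 4 probe sets were below the floor. Dkk2 and Dkk3, of the Dickkopf family of secreted proteins, and Wif1, which binds Wnt proteins directly, were not above the floor. Of 13 markers of stroma, muscle and vessels, tissues in which several antagonists are made, 9 were below the floor on both arrays. The other 4 ranged from Des, at least 1.62-fold lower, to Acta2 at 0.76. The summed signal of the 13, which takes in the 9 below the floor, was 1060 in control and 1012 in knockout. Vim alone had 420 in control and 339 in knockout, so the sum says little about the other markers.

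Receptor genes were mostly lower in the knockout pool. Of the 10 receptor and co-receptor genes, 8 were measured. Of the 8, 7 were lower (87.5%, against 55.1% of all genes measured). Of these, 2 passed 1.5-fold (25% of the 8, against 8.74% of all genes measured). The median of the 8 was -0.43. The 6 measured Frizzled genes had a median of -0.55. Fzd6 had a signal of 520 in control and 260 in knockout (log2 ratio -1.002, 2.00-fold lower). Its second measured probe set, at 96.3 in control and 55.3 in knockout, gave only a bound of -0.053. Fzd1 had 407 in control and 213 in knockout (-0.94, 1.91-fold lower), by the 1 of its 2 probe sets that was above the floor. Both genes therefore rest on a single probe set. The mean over the measured probe sets of Fzd6, which takes in that bound, was -0.53, within 1.5-fold.

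Fzd5, a Frizzled of the intestinal epithelium needed by Paneth cells for their maturation, had a signal of 4524 in control and 3035 in knockout. Its log2 ratio of -0.58 (1.49-fold lower) fell just short of 1.5-fold, and after quantile normalisation it passed it (-0.63). The second probe set of Fzd5 was much dimmer, with 179 in control and 154 in knockout, and gave -0.21. Fzd2 had 148 in control and 103 in knockout (-0.53), with -0.13 by another probe set. Fzd7, a receptor reported on Lgr5-expressing stem cells, had 546 in control and 435 in knockout (-0.33, 1.26-fold lower). Fzd4 was the 1 receptor gene that was higher, at 201 in control and 242 in knockout (0.27, and 0.31 by another probe set), within the probe-set SD for genes of that signal. Fzd3 and Fzd8 were below the floor by every probe set. The Frizzled genes thus divide into 5 that were lower, 1 that was slightly higher and 2 that were not measured.

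The co-receptor genes differed less. Lrp6 had a signal of 1235 in control and 1114 in knockout (-0.15), and -0.34 by its other probe set. Lrp5 was dim, at 112 in control and 93.9 in knockout (-0.25, 1.19-fold lower), the latter at the edge of the floor. Both lay within 1.5-fold by every probe set measured.

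Of the 3 Dishevelled genes only Dvl1 was above the floor in both pools, with almost the same signal in each. Dvl1, which encodes a Dishevelled protein that passes the signal from Frizzled to the destruction complex, had 5329 in control and 5343 in knockout, a log2 ratio of 0.0038. Its other probe set gave 0.11. Dvl2 crossed the floor, with 75.9 in control and 101 in knockout (at least 1.09-fold higher, and 0.41 with no floor), and Dvl3 was below the floor on both arrays.

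All 6 genes of the destruction complex and its ubiquitin ligase were measured, none of the 6 differed by 1.5-fold, and their median was -0.11. The scaffold gene Apc had a signal of 1484 in control and 1424 in knockout (-0.060), whereas other measured probe sets gave 0.13 and 0.24. Axin1, the scaffold gene that is not itself a feedback target, had 1099 in control and 978 in knockout (-0.17), and -0.23 by its other probe set. The casein kinase gene Csnk1a1 had 6335 in control and 6754 in knockout (0.092), with 0.24, 0.30 and -0.25 by other probe sets. Gsk3a, encoding a GSK3 kinase, had 1502 in control and 1572 in knockout (0.066).

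Gsk3b, encoding the other GSK3 kinase, stood somewhat apart from this group. It had 3004 in control and 2206 in knockout by its brightest probe set, a log2 ratio of -0.44 (1.36-fold lower). Its 5 other probe sets gave -0.24, 0.20, -0.52, -0.68 and -0.33, so that 5 of 6 were lower, 1 of them past 1.5-fold. The probe set that differed most from the brightest was the 1 that was higher. Btrc, the F-box protein that recognises phosphorylated beta-catenin, was dim, at 145 in control and 129 in knockout (-0.17), and its other 2 measured probe sets gave bounds of -0.10 and -0.25.

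**Figure D3:**
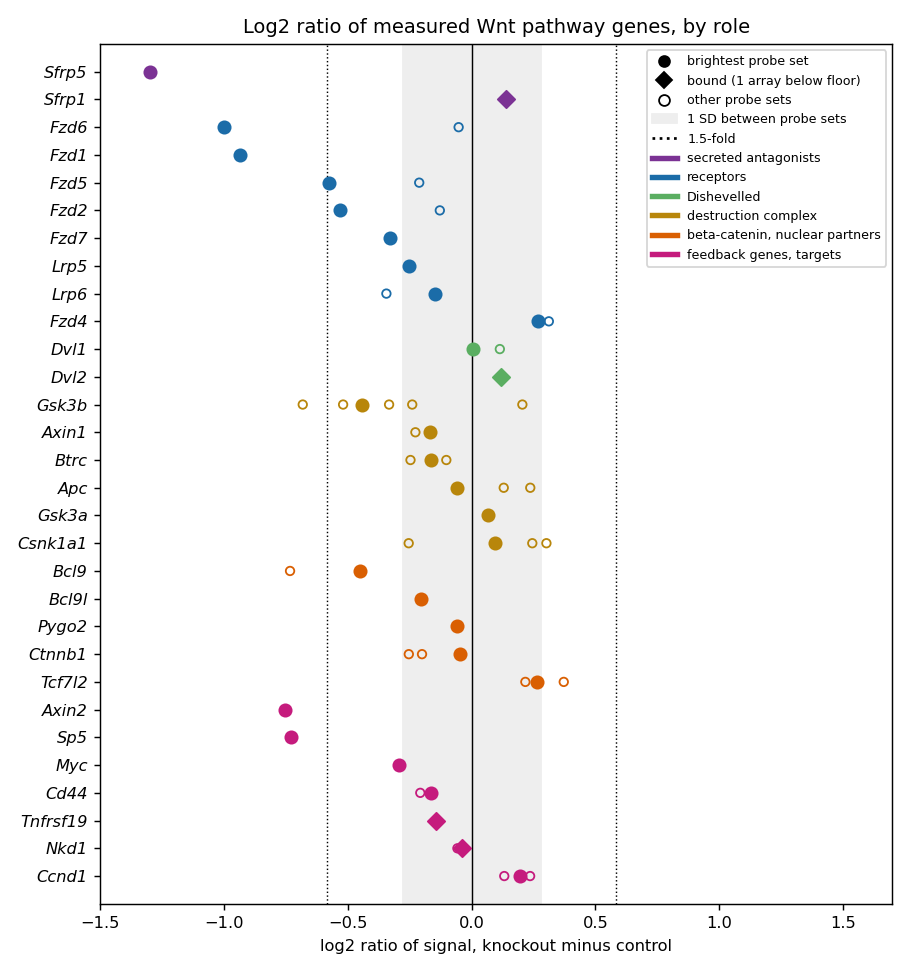
Log2 ratio, knockout minus control, of the 30 measured Wnt pathway genes, grouped by role. Filled circles are the brightest probe set, diamonds are bounds where 1 array lay below the floor and open circles are other measured probe sets. The grey band is 1 probe-set SD (0.28) and dotted lines mark 1.5-fold. Receptor genes lie mainly to the left of the band, whereas the filled circles of the destruction complex lie in it apart from that of Gsk3b.

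Beta-catenin itself was nearly equal in both pools. Ctnnb1 had a signal of 22830 in control and 22070 in knockout, a log2 ratio of -0.049, and -0.25 and -0.20 by its 2 dimmer probe sets. These values are of transcript, while the pathway acts mainly on the stability of the protein, which the arrays do not measure. Of the TCF/LEF factors only Tcf7l2, the main one of the intestinal epithelium, was measured. It had 886 in control and 1063 in knockout (0.26, 1.20-fold higher). Its other measured probe sets gave 0.22 and 0.37, so that all 3 were higher and none of the 3 reached 1.5-fold.

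Lef1 and Tcf7l1 were below the floor on both arrays, and Tcf7 was not named by a probe set here. Lef1 and Tcf7 are also expressed in T lymphocytes. In the same pools all 12 measured T and NK lymphocyte markers were lower, with a median log2 ratio of -2.10 and a summed signal of 43684 in control and 9123 in knockout. They ranged from Cd7, at least 10.3-fold lower, to Thy1, at least 1.21-fold lower. Lef1 was below the floor also in the control pool, with signals of 54.6 in control and 69.98 in knockout.

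The co-activators of beta-catenin were lower by different amounts. Bcl9, an adaptor between beta-catenin and Pygopus, had 232 in control and 169 in knockout (-0.45, 1.37-fold lower), and its other probe set, also above the floor on both arrays, gave -0.73. With the mean of both probe sets Bcl9 was at -0.59 and passed 1.5-fold. The related Bcl9l had 522 in control and 453 in knockout (-0.20). Pygo2, a Pygopus gene, had 1031 in control and 989 in knockout (-0.060). Over the 5 measured genes of this group the median was -0.060, and none of the 5 passed 1.5-fold by its brightest probe set.

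The 8 feedback genes and targets did not move as a block. Of the 7 measured, 6 were lower (85.7%, against 55.1% of all genes measured), with a median of -0.17. Of the 6, 2 were lower by at least 1.5-fold (28.6% of the 7, against 8.74% of all genes measured). The other 23 measured Wnt genes also had a median of -0.17. The median of the feedback genes and targets includes 2 bounds and depended on the floor: a floor at the 30th percentile gave -0.39 and no floor gave -0.31, where the medians over all measured members were -0.20 and -0.19. Axin2, a scaffold of the destruction complex that is switched on by the pathway it inhibits, had a signal of 1305 in control and 773 in knockout (log2 ratio -0.76, 1.69-fold lower). Its paralogue Axin1 was at -0.17, as given above. Sp5, a zinc finger transcription factor gene induced by Wnt signals, had 241 in control and 145 in knockout (-0.73, 1.66-fold lower). Each rests on 1 probe set above the floor. Over the alternative settings in which it was measured, Axin2 ranged from -0.76 to -0.69 and Sp5 from -0.73 to -0.49, the latter with a pseudocount and within 1.5-fold.

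The targets tied to growth differed less and in both directions. Myc, a transcription factor gene of cell growth, had 1112 in control and 907 in knockout (-0.29, 1.23-fold lower). Ccnd1, the cyclin of G1 phase, had 2573 in control and 2949 in knockout (0.20), while further probe sets for it gave 0.13 and 0.24, all 3 higher and within 1.5-fold. Cd44, an adhesion receptor of crypt cells, had 1771 in control and 1580 in knockout (-0.17), and -0.21 by another probe set.

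The remaining feedback genes were near or below the floor. Nkd1, an inhibitor that binds Dishevelled, had 95.5 in control and 77.1 in knockout, so that its fold is a bound of at least 1.03-fold lower. Another of its probe sets gave a bound of -0.058. Tnfrsf19, a receptor of the tumour necrosis factor receptor family found on crypt stem cells, had 102 in control and 61.2 in knockout (at least 1.10-fold lower, and -0.74 with no floor). Notum, a secreted enzyme that removes the lipid from Wnt proteins, had 85.9 and 61.8, below the floor on both arrays. The floor hides the size of any difference in these 3 genes.

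Further Wnt genes outside the 42 were taken from a list of 66, of which 64 were named and 43 measured. Of these, 15 were at least 1.5-fold lower and none was 1.5-fold higher (34.9%, against 8.74% of all genes measured), with a median of -0.34. The crypt targets in that list were lower throughout: 10 of 10 measured were below 0, 8 of them by at least 1.5-fold, with a median of -0.82. Lgr5, the R-spondin receptor of stem cells, had 814 in control and 171 in knockout (-2.25). Slc12a2 was at -1.09, Sox4 at -1.06, Sox9 at -0.99, Rnf43 at -0.86, Cdca7 at -0.78, Ephb3 at -0.74 and Mmp7 at -0.71, while Znrf3 was highest at -0.36. Several of these are also markers of stem or Paneth cells, so the list is not separate from those cells.

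Of the other 7 genes at least 1.5-fold lower, 2 belong to ligands and their secretion, 4 to the regulators of the destruction complex and 1 to the nuclear cofactors. Wls, which carries Wnt proteins to the cell surface, had 469 in control and 190 in knockout (-1.30), with -1.33 and -0.91 by other probe sets. Wnt4 was at least 2.14-fold lower, but another of its probe sets, below the floor in control, gave a bound of 0.53 in the opposite direction, and Wnt6 was at 0.29. Frat2, of a family that binds GSK3, had 1496 in control and 839 in knockout (-0.84), and Frat1 was at least 2.05-fold lower. Amer1, a partner of APC, was at -0.71 and the tankyrase gene Tnks, whose product marks AXIN for degradation, at -0.66, with Skp1 highest of that list at 0.12. Of the R-spondin genes only Rspo2 was measured, at 0.30. The other receptors and antagonists ranged from -0.50 (a bound, Sfrp4) to -0.040 (Ror2, with a bound of -0.55 by another probe set). The nuclear cofactors ranged from Tle3 at -0.72 (with a bound of -0.50 and a ratio of 0.034 by other probe sets) to Ctnnbip1 at 0.51 (0.11 by its other probe set), with a median of -0.10.

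**Figure D4:**
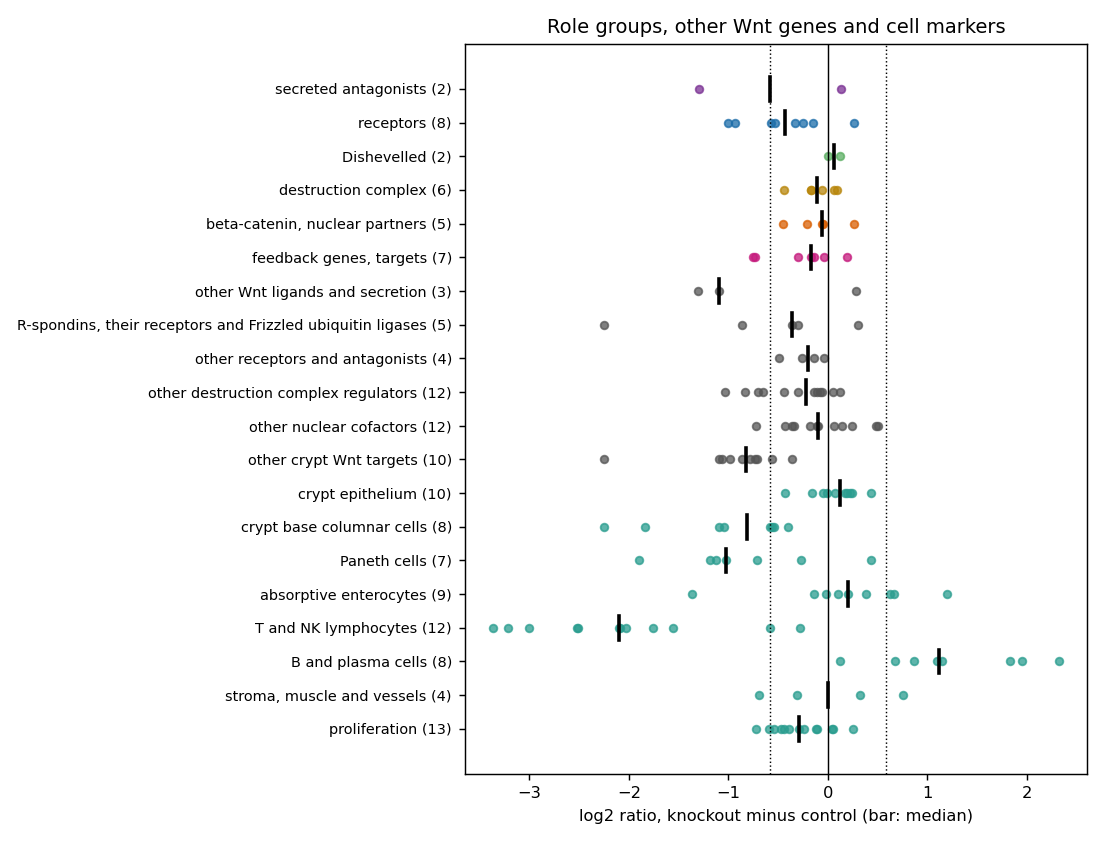
Log2 ratio, knockout minus control, of every measured gene in the role groups (coloured), in 6 lists of other Wnt genes (grey) and in 8 cell marker lists (green); black bars are medians, numbers in brackets are genes measured and dotted lines mark 1.5-fold. The medians of other crypt Wnt targets (-0.82), crypt base columnar cells (-0.82) and Paneth cells (-1.02) lie to the left of those of the destruction complex (-0.11) and of beta-catenin and its partners (-0.060). Lgr5, Ascl2 and Slc12a2 are in the lists of both crypt Wnt targets and crypt base columnar cells. Mmp7 is in those of both crypt Wnt targets and Paneth cells.

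Cell markers moved beside these genes. All 8 markers of crypt base columnar cells, the cycling stem cells, were lower. Of these, 5 were at least 1.5-fold lower (62.5%, against 8.74% of all genes measured). Their median as a list of 8 was -0.82, with a summed signal of 57025 in control and 33757 in knockout. The lowest of the 8 was Lgr5 and the highest Rgmb (-0.40). Lgr5, Ascl2 and Slc12a2 are also in the list of crypt Wnt targets, as is the Paneth cell marker Mmp7, so these lists partly repeat the same values. Of the 7 measured Paneth cell markers 6 were lower, from Mptx1 at -1.90 to Habp2 at 0.43, with a summed signal of the 8 named markers of 114473 in control and 70440 in knockout. In bulk crypts, fewer cells of a type and less RNA per cell cannot be told apart. The 13 measured proliferation genes had a median of -0.29, from Mcm6 at -0.72 to Birc5 at 0.26, with summed signals of 55667 and 46129. Absorptive enterocyte genes had a median of 0.20 over 9 genes, from Lct at -1.36 to Rbp2 at 1.20, with summed signals of 216480 and 255769. All 8 measured B and plasma cell markers were higher (median 1.12, from Cd79a at 0.12 to Jchain at 2.33), with summed signals of 6076 and 21539. Copz2 of the Paneth cell list and Tnfrsf17 of the B and plasma cell list were below the floor on both arrays. The part of any of these cell types in the values of the Wnt genes was not tested.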

How the data were processed

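Crypt RNA was read on 2 Affymetrix mouse arrays, each of 45101 probe sets. The deposited values are linear signal intensities made with MAS5 by the authors, per the submitters' processing notes; version not given in the sources used here. Each array had a mean of 500.0 once the top and bottom 2% were trimmed, and was used without further scaling. The design text names a smaller array version, while the probe annotation matches the full array. The 64 control probe sets were set aside; 34945 probe sets had 1 gene symbol, 932 several and 9160 none, and only the first kind named genes, with symbols updated through Entrez identifiers for 34741.

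Signals below the floor (92.9) were raised to it, so a gene below it on 1 array has a bound, written "at least", and floored values are unordered. Log2 ratios, medians and counts at 1.5-fold were computed with Python 3.11.15, numpy 2.4.6 and pandas 2.3.3, and tested on simulated data. The number of arrays limits the precision. Levels of different probe sets are not comparable. Named were all measured members, further Wnt genes at least 1.5-fold different or at either end of their list, and the ends of each marker list. Other probe sets are given beside members. Alternatives covered the floor, a pseudocount, the scaling and the choice of probe set. The members and lists were chosen with earlier results of these data known.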

Additional observations from a re-analysis of the deposited data

How the results depend on the processing

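No paired analysis was possible because there is a single array a group, which also prevents leaving 1 out. Of the 5 genes at least 1.5-fold lower, 2 were left with the floor at the 70th percentile, where 19 of the 42 genes were measured. With a floor at the 30th percentile or none, 1 gene was at least 1.5-fold higher (Sfrp1, 0.81 in both). Tnfrsf19 (-0.74 in both) then joined the genes at least 1.5-fold lower, which made 6. At the 30th percentile 37 of the 42 genes were measured. Of all 15016 genes measured there, 1889 were at least 1.5-fold lower and 1234 higher. With no floor the counts were 1282 and 764 of 11496. The median of the secreted antagonists, which rests on 2 genes, moved from -0.58 to 0.17 with the floor at the 30th percentile, where more of them were measured, to -0.24 with no floor, to -0.24 with a pseudocount and to -1.30 without _s_at and _x_at probe sets, which leaves Sfrp5 alone. With the floor at the 30th percentile 7 more genes were measured: Notum (-0.48), Fzd3 (-0.31), Tcf7l1 (-0.29), Dvl3 (-0.21), Dkk3 (0.17), Lef1 (0.36), Porcn (0.54). The other medians moved by less than the probe-set SD: -0.39 to -0.13 for feedback genes and targets, -0.43 to -0.29 for receptors and -0.36 to -0.22 for the other Wnt genes. With the mean of the probe sets Bcl9 joined the genes at least 1.5-fold lower (-0.59) and Fzd6 left them (-0.53, a mean that takes in a bound). Sfrp5 was at -0.85 with a pseudocount, and Fzd1 had a bound of -0.36 with the floor at the 70th percentile. Dim signals limit Nkd1, Tnfrsf19, Dvl2 and Sfrp1, whose ratios depend on the floor.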
